A study of Mus musculus with 15 samples.

Results

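The genes described here carry glucose through glycolysis or are known to respond to low oxygen. They are 39 genes chosen by symbol from a list that follows both functions, out of 17030 genes in the table, and all 39 were found and passed the filter on low values. Messenger RNA of mouse bone marrow cells was sequenced in 15 libraries, with 3 libraries for each of the 5 groups. Wild-type genotype and no treatment were given for progenitor cells, BMDM macrophages and Hoxb8 macrophages. The remaining macrophages were labelled with CAR expression and CAR treatment or with control-CAR expression and treatment. All 5 groups were labelled as primary cells of bone marrow. The labels name no antigen, vector, promoter, culture time, medium, oxygen level, mouse strain, age or clone, and whether libraries of a group shared an animal or a culture is not stated. P-values therefore measure the spread between these libraries, which may be technical.

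Glycolysis splits glucose into pyruvate and yields a little ATP without oxygen, and lactate dehydrogenase then returns the NAD+ that the pathway consumes. When oxygen is plentiful, prolyl hydroxylases mark the HIF-1 alpha protein for destruction, whereas in low oxygen HIF-1 binds DNA at short sites around the letters ACGTG or GCGTG and raises most glycolytic genes together with genes for blood vessel growth, collagen processing and mitochondrial turnover. Macrophages use the same factor in inflammatory activation with oxygen present, so these genes are often read as part of macrophage activation as well.

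The libraries held 16962834 to 19221685 estimated counts each. Levels are given as FPKM, which divides fragments by gene length and by the library's total, and a mean is followed by its SD over 3 libraries. Changes are log2 ratios from a model of the counts fitted on 11793 genes (edgeR's quasi-likelihood test with TMM scaling), and a gene was called at a Benjamini-Hochberg adjusted p under 0.05. TMM assumes that most genes keep their level and FPKM does not, so a modelled change can differ from the ratio of FPKM means. The summed FPKM of 9 macrophage markers was 207 to 228 in progenitor libraries, 5583 to 5739 in CAR libraries and 12020.4 to 12849.6 in control-CAR libraries. In the other macrophages it was 12467 to 13119 (Hoxb8 macrophages) and 12589 to 13746 (BMDM). Of these 9 markers, 1 was called higher and 7 lower in CAR than in control-CAR libraries, where 41.9% of all tested genes were called higher and 36.8% lower. All 8 mast cell and basophil markers were called higher there, with sums of 3647 to 3871 against 421 to 472 FPKM. All 15 S phase genes were too, at 572 to 586 against 139 to 158 FPKM. Fibroblast markers, 4 of 5 tested called higher, summed to 46.0 to 47.3 against 0.880 to 1.32 FPKM. Epithelial markers (3 of 4 tested called higher) summed to 9.73 to 10.2 against 0.510 to 0.870 FPKM, and erythroid markers (2 of 2) to 63.1 to 74.3 against 1.46 to 3.20 FPKM. Neutrophil markers went the other way, 7 of 8 called lower and 1 higher, at 349.6 to 391 against 1647 to 2056 FPKM. Of 8 myeloid progenitor markers, 4 were called higher (sums 161 to 175 against 13.4 to 15.5 FPKM), a count near the share of all tested genes. None of the 4 tested T, B and NK cell markers was called. In the control-CAR libraries 1 of 7 fibroblast, 4 of 8 epithelial, 4 of 7 erythroid and 6 of 9 lymphocyte markers were at 0 in all 3 libraries. Other groups held such transcripts too. In BMDM, neutrophil markers summed to 5594 to 11427.5 FPKM, epithelial markers to 20.6 to 25.25 and fibroblast markers to 17.3 to 18.9. Mast cell and basophil markers (302 to 321 FPKM) and erythroid markers (6.23 to 6.49 FPKM) were below CAR there. In progenitor libraries, mast cell and basophil markers summed to 1630 to 1750 FPKM and S phase genes to 2095 to 2109. The part of these other cell types in the results below was not tested. In bulk RNA, fewer cells of a type and less RNA per cell cannot be told apart.

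The short site that HIF-1 recognises can be looked for in the promoters themselves. RefSeq promoter windows (GRCm38.p6, 250 bases before to 50 after a start) were matched by gene identifier for 36 of the 39 members, and Slc2a3, Bnip3l and Ndrg1 had none. ACGTG, searched on both strands, stood in a window of 27 of those 36 genes (75%), against 29.5% of the 9535 tested genes with a window and 21.8% of all 27025 genes with one. Counted by window, 54.5% of the members' 55 windows held it, against 25.5% of those of tested genes and 19.6% of all. The related GCGTG was found in 69.4% of members and 55.4% of tested genes, and 35.2% of all genes. CACGTG, the palindrome that holds ACGTG on both strands, was in 13.9% of members and 11.6% of tested genes. These matches describe letters, with no test, and binding was not measured.

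Printed next are the bases before the start for 4 of the 5 members with the largest changes in CAR against control-CAR macrophages among those whose window held ACGTG. In the other one, Aldoc, the letters lay after the start only. Slc16a3 and Ldha were added after their values were seen, as the member with the largest rise and the member with the most matches. Each sequence runs 5′ to 3′ on the strand of its gene and ends at the base before the start, and capitals mark ACGTG, or CACGT where it lies on the opposite strand, and their overlap marks both at once.
Ankrd37: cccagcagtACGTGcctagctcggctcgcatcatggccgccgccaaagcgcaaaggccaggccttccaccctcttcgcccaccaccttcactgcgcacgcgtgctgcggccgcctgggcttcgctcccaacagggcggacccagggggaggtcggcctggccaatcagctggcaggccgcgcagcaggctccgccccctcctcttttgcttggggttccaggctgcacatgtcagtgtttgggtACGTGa
Egln3: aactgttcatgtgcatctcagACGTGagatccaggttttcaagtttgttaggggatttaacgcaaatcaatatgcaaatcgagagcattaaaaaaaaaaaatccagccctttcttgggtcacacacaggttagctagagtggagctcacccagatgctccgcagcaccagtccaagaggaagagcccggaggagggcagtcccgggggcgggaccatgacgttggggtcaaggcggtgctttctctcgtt
Ero1l: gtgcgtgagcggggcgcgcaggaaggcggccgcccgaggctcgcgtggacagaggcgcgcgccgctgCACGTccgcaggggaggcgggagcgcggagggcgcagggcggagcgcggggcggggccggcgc
Mxi1: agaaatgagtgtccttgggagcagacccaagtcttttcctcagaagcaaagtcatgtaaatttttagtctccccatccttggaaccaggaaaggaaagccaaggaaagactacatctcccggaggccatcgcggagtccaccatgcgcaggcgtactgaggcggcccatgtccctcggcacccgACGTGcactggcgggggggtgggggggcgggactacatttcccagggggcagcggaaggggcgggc
Slc16a3: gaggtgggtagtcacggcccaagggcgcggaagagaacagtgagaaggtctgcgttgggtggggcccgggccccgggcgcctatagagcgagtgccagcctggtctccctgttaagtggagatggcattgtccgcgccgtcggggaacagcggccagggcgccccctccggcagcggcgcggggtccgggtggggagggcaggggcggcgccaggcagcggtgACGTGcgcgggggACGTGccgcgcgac
Ldha: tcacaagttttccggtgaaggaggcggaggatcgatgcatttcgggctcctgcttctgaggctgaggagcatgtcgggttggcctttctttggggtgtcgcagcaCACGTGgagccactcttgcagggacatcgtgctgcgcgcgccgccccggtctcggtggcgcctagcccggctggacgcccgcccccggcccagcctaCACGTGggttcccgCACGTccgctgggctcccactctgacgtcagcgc

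The Ankrd37 stretch (chr8:45999851-46000100, minus strand) held ACGTG from 241 and from 6 bases before the start, and the Egln3 stretch (chr12:54203875-54204124, minus strand) held it from 229 bases before. The Ero1l gene, called Ero1a in RefSeq, had it on the opposite strand from 63 bases before its start (chr14:45318573-45318702, minus strand; 130 bases printed, because an annotated exon lies farther out). The Mxi1 stretch belongs to one of the gene's RefSeq starts (chr19:53329163-53329412, plus strand), with the letters from 66 bases before. Slc16a3, which rose where most members fell, had them from 27 and 14 bases before its start (chr11:120948817-120949066, plus strand). Ldha (chr7:46845554-46845803, plus strand) held 5 matches, 4 of them in 2 copies of CACGTG. The starts used for Ankrd37, Mxi1, Slc16a3 and Ldha lie inside the annotated gene and are not its outermost ones. A stretch was printed only if it held the letters, so their presence here cannot show whether they go with the direction of change.

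Over the 5 groups the commonest full order of means, from Hoxb8 macrophages through control-CAR, BMDM and CAR macrophages down to progenitor cells, was held by 14 of the 39 members. The group mean was highest in Hoxb8 macrophages for 25 members and in control-CAR macrophages for 6, and lowest in progenitor cells for 29. CAR macrophages held the lowest mean for 7 members (Slc2a3, Gpi1, Pfkp, Aldoc, Pfkfb3, Pdk1 and Egln1) and the highest for Kdm3a alone. For 28 members the CAR mean lay above the progenitor mean and below both the control-CAR and the Hoxb8 macrophage mean. BMDM had the highest mean for 6 members and the lowest for 3. These orders of FPKM means were not counted over all tested genes, so how common they are there is not known. The 12 enzymes from glucose-6-phosphate isomerase to lactate dehydrogenase (Gpi1, Pfkl, Pfkp, Aldoa, Aldoc, Tpi1, Gapdh, Pgk1, Pgam1, Eno1, Pkm and Ldha) together made up 1.55% ± 0.0419 of the TPM, a length-scaled share of all transcripts, in progenitor cells and 2.11% ± 0.00916 in CAR macrophages. The same share was 2.45% ± 0.149 in BMDM, 3.23% ± 0.0949 in control-CAR and 3.27% ± 0.0542 in Hoxb8 macrophages, so the CAR libraries (2.10% to 2.11%) did not overlap with any other group. Replicates were tight, with a median coefficient of variation over members of 2.09% in CAR and 6.73% in BMDM libraries, the lowest and highest of the 5 groups.

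**Figure D1:**
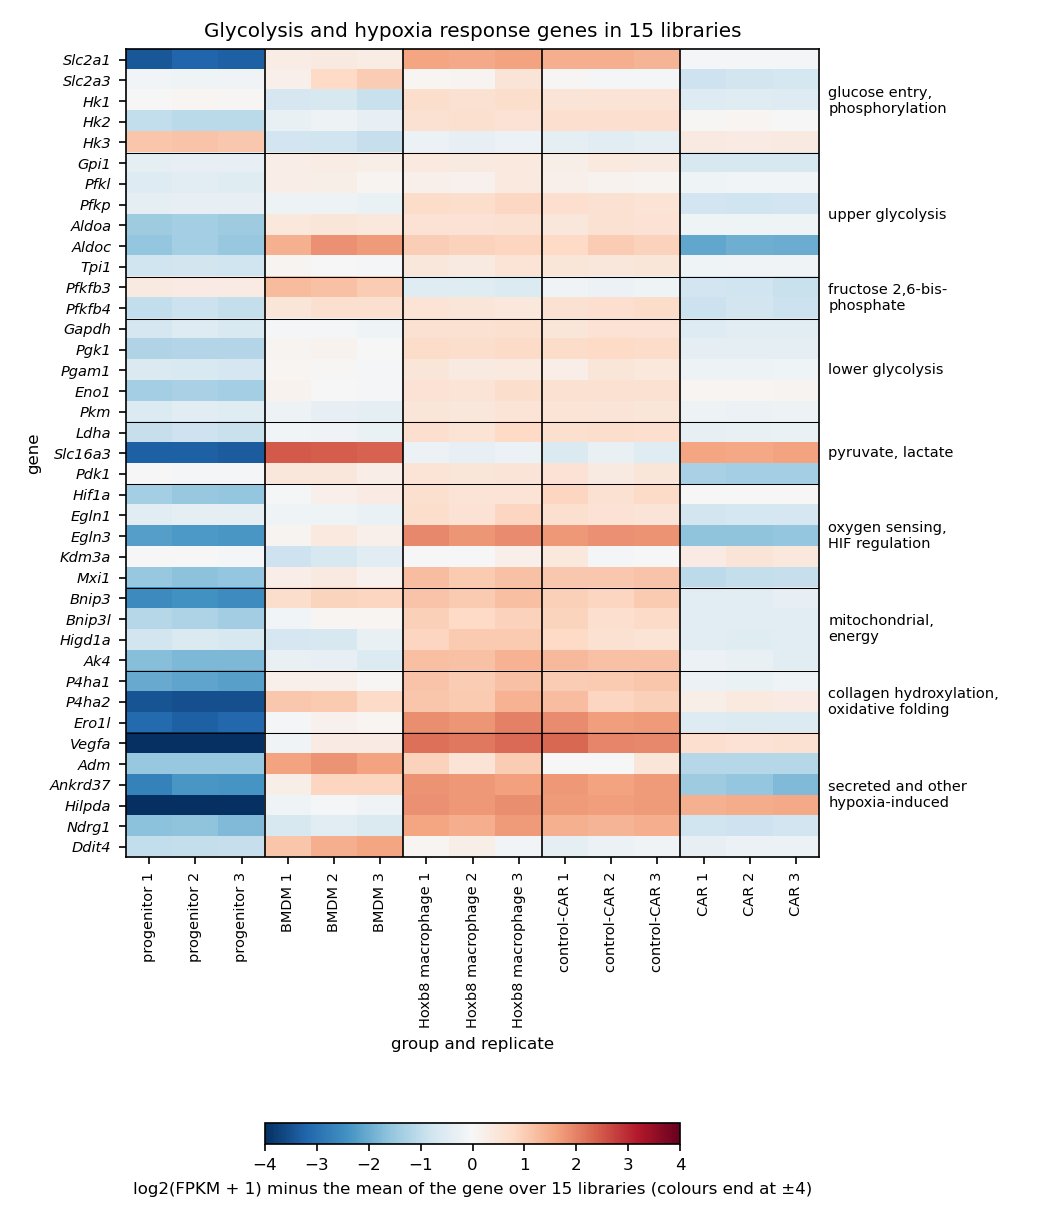
Heat map of the 39 members (vertical axis, grouped by role) in the 15 libraries (horizontal axis). Colour gives log2(FPKM + 1) minus the mean of the gene over all libraries; most members are red in Hoxb8 and control-CAR macrophages and blue in progenitor cells, CAR libraries lie lower on this scale than control-CAR for most of them, and Slc16a3 and Hk3 break the pattern.

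The series sets CAR-treated cells against a control. Relative to control-CAR macrophages, in CAR macrophages 36 members were called lower, 2 higher (Slc16a3 and Hk3) and 1, Kdm3a, not called, with a background of 36.8% of all tested genes called lower and 41.9% called higher. The median change of the members was -1.35, and that of all tested genes 0.06. By TPM the members' median was -0.80 and that of all tested genes 0.52. By at least 2-fold, 29 members were called lower, where 11.7% of all tested genes were. By TPM 16 members were, but the 11.7% belongs to the main fit. Over all tested genes, lower calls of any size fell from 4334 to 1933 by TPM. The FPKM values of 35 members were lower in every CAR than in every control-CAR library, as they were for 24.7% of all tested genes. Apart from Ddit4, each member called had an edgeR adjusted p of at most 2.33e-06. Scaling by library totals moved the median of all tested genes by 0.31, and the split of all tested genes from 4946 higher and 4334 lower to 6722 and 2770; TPM moved it to 8018 and 1933, and quantile normalisation to 4212 and 5306. Across every alternative scaling, test and left-out library, 33 to 36 members were called lower and 2 or 3 higher.

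Glucose enters the cell through transporters and is trapped by hexokinases, and here 4 of 5 members fell and 1 rose. Slc2a1 (GLUT1, the main transporter of activated macrophages) stood at 283, 282 and 283 FPKM in the CAR libraries. In the control-CAR libraries it stood at 798, 790.2 and 748 FPKM, a log2 change of -1.77, SE 0.06. The groups lay far apart, and CAR was still well above progenitor cells, at 29.1 ± 2.24 FPKM, and below BMDM, at 364 ± 7.48 FPKM. Slc2a3 (GLUT3) was a minor transporter at 5.24, 5.69 and 5.90 against 10.6, 9.81 and 9.78 FPKM (-1.14, SE 0.16). Hk1, the hexokinase of most tissues, fell from 228, 235 and 232 to 112, 114 and 111 FPKM (-1.35, SE 0.07). Hk2, the inducible form that responds to HIF-1, changed by -1.06, SE 0.05, from a mean of 109 ± 0.440 to 70.1 ± 1.28 FPKM. Hk3, a hexokinase typical of myeloid cells, went the other way, with 217, 214 and 218 FPKM in the CAR libraries and 131, 127 and 129.6 in the control-CAR libraries (0.44, SE 0.06). All 3 CAR values were above all 3 control-CAR values. Hk3 was also the one member with its highest mean in progenitor cells, 366, 374 and 357 FPKM, and its lowest was in BMDM, 99.4, 96.3 and 88.6 FPKM.

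The next 6 enzymes, which turn glucose 6-phosphate into triose phosphates, all fell. Aldoc, an aldolase isoform best known from brain, fell most, from 24.6, 29.0 and 27.2 FPKM in control-CAR to 2.53, 2.81 and 2.78 in CAR libraries (-3.62, SE 0.11). Progenitor cells had 4.37 ± 0.362 FPKM, against which the CAR level was not called, and BMDM 38.8, 51.7 and 47.5 FPKM, far above it. Aldoa, the main aldolase of all 5 groups, fell less, from 2733 ± 157 to 1655 ± 15.6 FPKM (-1.03, SE 0.06). Pfkp, the platelet form of phosphofructokinase (the committed step), had 53.2, 51.0 and 52.2 FPKM in CAR against 145, 138 and 131 in control-CAR libraries (-1.71, SE 0.06). Pfkl, the liver form, changed by -0.59, SE 0.06, from 105 ± 2.94 to 86.2 ± 1.91 FPKM. Both forms were lower in every CAR library than in every control-CAR library. Gpi1, the isomerase, went from 503, 561 and 541 to 269, 271 and 273 FPKM (-1.29, SE 0.06), and its FPKM in CAR was below all other groups, although the TMM-scaled model called it higher than in progenitor cells (0.18). Tpi1, which interconverts the triose phosphates, fell from a mean of 1059.6 to 686 FPKM (-0.93, SE 0.06). Scaled by TPM, the change of Pfkl was no longer called (-0.044, limma adjusted p = 0.441).

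Of the enzymes that set fructose 2,6-bisphosphate, the activator of phosphofructokinase, Pfkfb3 and Pfkfb4 are members, and both fell. Pfkfb4 stood at 3.74, 4.21 and 3.72 FPKM in CAR and 12.3, 12.6 and 13.4 in control-CAR libraries (-2.00, SE 0.07). Pfkfb3, whose enzyme strongly favours making the activator, stood at 17.1, 16.5 and 15.6 against 26.8, 25.1 and 25.9 FPKM (-0.91, SE 0.07). Neither pair of groups overlapped. Pfkfb3 had another order, since its mean was highest in BMDM, next in progenitor cells (37.5 ± 0.365 FPKM) and lowest in CAR.

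All 5 lower glycolytic enzymes, which harvest ATP, fell, at high levels throughout. Gapdh, the dehydrogenase that is often used as a reference gene, had 4361, 4581 and 4675 FPKM in CAR and 8762, 9449 and 9482 in control-CAR libraries (-1.33, SE 0.07); quantile normalisation put its change at 0.12 (limma adjusted p = 0.17). Pgk1, phosphoglycerate kinase, fell from 1888, 1953 and 1867 to 857, 854 and 867 FPKM (-1.45, SE 0.06). Pkm, pyruvate kinase, fell from 2554, 2552 and 2453 to 1546, 1509.6 and 1542 FPKM (-1.02, SE 0.07). Each CAR library was below each control-CAR library for these 3 genes, by FPKM. Pgam1 (phosphoglycerate mutase) changed by -0.89, SE 0.07 and Eno1 (enolase) by -0.83, SE 0.07, the smallest change of the 5, to 1729 ± 27.4 from 2485 ± 13.7 FPKM. With quantile normalisation Eno1 was not called (-0.090, limma adjusted p = 0.268). Several of these enzymes have many processed pseudogenes, and how the counting shared reads among such copies is not given in the sources used here.

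At the exit of the pathway the members divided. Ldha, which turns pyruvate into lactate, fell from 2568, 2651 and 2637 FPKM in control-CAR to 1304, 1334 and 1363 in CAR libraries (-1.28, SE 0.07). Pdk1, a kinase that keeps pyruvate out of mitochondria by switching off pyruvate dehydrogenase, fell from 41.1, 35.9 and 38.6 to 10.5, 10.1 and 10.1 FPKM (-2.28, SE 0.06). The CAR libraries were the lowest of all for Pdk1, under the 26.8 ± 0.465 FPKM of progenitor cells. Slc16a3 (chr11:120948484-120959000), which encodes the lactate exporter MCT4, rose from 33.2, 40.2 and 35.4 FPKM in control-CAR to 152, 149 and 154 in CAR libraries, 3.38-fold in the model (1.76, SE 0.07). It was the only member that rose by 2-fold or more in this comparison. Hoxb8 macrophages had 42.4, 39.8 and 42.5 FPKM, close to control-CAR, progenitor cells 4.31, 4.29 and 4.11 and BMDM 280.5, 274 and 261. The 5 groups thus kept apart except for the pair of Hoxb8 and control-CAR macrophages, with CAR between those and BMDM.

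**Figure D2:**
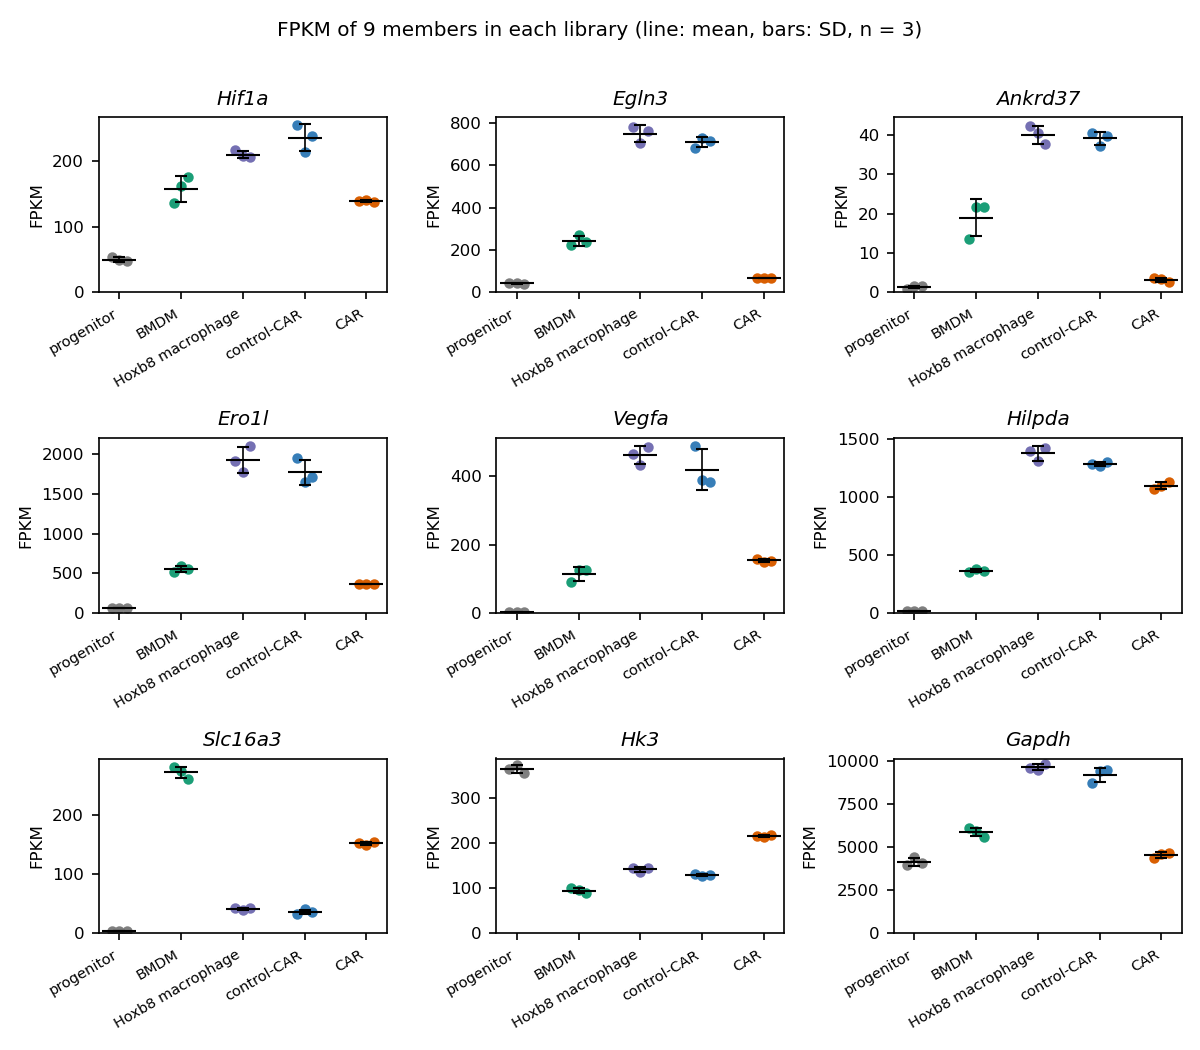
FPKM (vertical axes, from 0) of 9 members in each of 15 libraries by group (horizontal axes); points are libraries, the line is the mean and bars are SD (n = 3). CAR lies near progenitor cells for Egln3, Ankrd37 and Gapdh, between progenitor and control-CAR cells for Hif1a, Ero1l and Vegfa, close to control-CAR for Hilpda, and above control-CAR for Slc16a3 and Hk3.

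Among the genes of oxygen sensing, 4 of 5 fell and Kdm3a was not called. Hif1a (chr12:73901324-73947554), the oxygen-regulated subunit, whose protein is controlled mostly after translation, had 140.0, 141 and 138 FPKM in CAR and 256, 215 and 238 in control-CAR libraries (-1.07, SE 0.07). In the other groups it had 217, 208 and 206 FPKM (Hoxb8 macrophages), 137, 162 and 176 (BMDM) and 53.6, 48.7 and 47.2 (progenitor cells). The CAR libraries were below all control-CAR and Hoxb8 macrophage libraries, above all progenitor libraries and inside the BMDM range, although the model called Hif1a lower in CAR than in BMDM (-0.37, SE 0.07), a call lost in the limma fits on FPKM (-0.17) and TPM (-0.097). Egln3 (chr12:54178981-54203874), a prolyl hydroxylase that HIF itself induces, had 66.4, 66.3 and 69.0 FPKM in CAR libraries. The other groups had 683, 728 and 716 (control-CAR), 782, 708 and 762 (Hoxb8 macrophages), 222, 270.0 and 238 (BMDM) and 43.5, 41.1 and 40.3 FPKM (progenitor cells). Here CAR sat just above progenitor cells and under BMDM with no overlap, a 13.0-fold fall from control-CAR in the model. Its paralogue Egln1, the main oxygen sensor, fell from 87.2, 83.8 and 81.0 to 33.5, 33.9 and 34.6 FPKM (-1.61, SE 0.07). Mxi1, a Myc antagonist induced by HIF, fell from 196, 195 and 205 to 43.6, 46.7 and 47.8 FPKM (-2.45, SE 0.07). Kdm3a, a histone demethylase induced by HIF, had 22.1, 25.1 and 23.5 against 23.5, 16.8 and 17.6 FPKM with overlapping libraries (0.01, SE 0.09; edgeR adjusted p = 0.919). Its sign turned without CAR replicate 2 (-0.034), control-CAR replicate 2 (-0.075) or control-CAR replicate 3 (-0.035), it moved to 0.15 without control-CAR replicate 1, and library totals called it higher (0.32).

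The mitochondrial and energy genes fell within a narrow range, -1.79 to -1.44. Ak4, a mitochondrial adenylate kinase, had 15.4, 14.5 and 13.0 FPKM in CAR and 46.0, 42.5 and 41.7 in control-CAR libraries (-1.79, SE 0.07). Bnip3, which tags mitochondria for removal, had 79.8, 81.1 and 87.0 against 217, 203 and 229 FPKM (-1.69, SE 0.06). Its relative Bnip3l (NIX) had 49.9, 51.4 and 50.7 against 127, 110.3 and 117 FPKM (-1.52, SE 0.06). None of these groups overlapped, and for all 3 genes CAR stayed above progenitor cells, which had 4.63 ± 0.254, 18.8 ± 0.832 and 28.3 ± 2.60 FPKM. Higd1a, a small protein of the respiratory chain that low oxygen induces, fell from 83.6 ± 7.25 to 38.0 ± 0.691 FPKM (-1.44, SE 0.08).

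All 3 genes of collagen hydroxylation and disulphide formation fell. Ero1l, an oxidase of the endoplasmic reticulum that passes on electrons from new disulphide bonds, had 367, 359 and 361 FPKM in CAR and 1951, 1655 and 1715 in control-CAR libraries, a 6.04-fold fall (-2.59, SE 0.07). P4ha1, a catalytic subunit of collagen prolyl 4-hydroxylase, had 71.0, 68.1 and 73.9 against 168, 173 and 179 FPKM (-1.60, SE 0.07). P4ha2, the alternative subunit, had 12.3, 14.0 and 13.4 against 25.8, 19.7 and 21.0 FPKM (-1.04, SE 0.11). No CAR library reached a control-CAR library for any of the 3. Progenitor cells held 1 P4ha2 count in all 3 libraries together, and CAR libraries 1426, a ratio, relative to library totals, of 1382 with a 95% counting interval (exact, counting error only) of 248 to 54632.

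The secreted and other hypoxia-induced genes held both the largest and the smallest falls among the members called. Ankrd37 (chr8:45996908-46000414), an ankyrin repeat protein known as a HIF target, had 3.68, 3.24 and 2.67 FPKM in CAR and 40.5, 37.1 and 39.8 in control-CAR libraries, a 14.9-fold fall. Adm, the vessel-widening peptide adrenomedullin, was low in both, at 0.310, 0.300 and 0.300 against 1.87, 1.94 and 3.01 FPKM (-3.18, SE 0.32). Ndrg1, a stress-response gene, had 63.7, 62.8 and 65.0 against 302, 291 and 305 FPKM (-2.53, SE 0.07). These 3 kept their groups apart in every library. Vegfa, the main growth factor for blood vessels, fell from 419.8 ± 59.5 to 154 ± 4.37 FPKM (-1.73, SE 0.10), and its control-CAR libraries were uneven at 488, 388 and 383 FPKM. Hilpda, which shields lipid droplets from breakdown, stayed high, at 1094 ± 29.7 against 1279 ± 18.1 FPKM (-0.52, SE 0.05); on the TPM scale its change was 0.014 and not called (limma adjusted p = 0.809). Ddit4 (REDD1), an inhibitor of mTORC1, overlapped between groups in FPKM, 46.6, 49.5 and 49.4 against 45.8, 50.1 and 53.2. Its modelled change was -0.34 (SE 0.10, edgeR adjusted p = 0.0047). That call was lost with library totals (-0.026, edgeR adjusted p = 0.829), and TPM turned its sign (0.21, limma adjusted p = 0.0693).

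**Figure D3:**
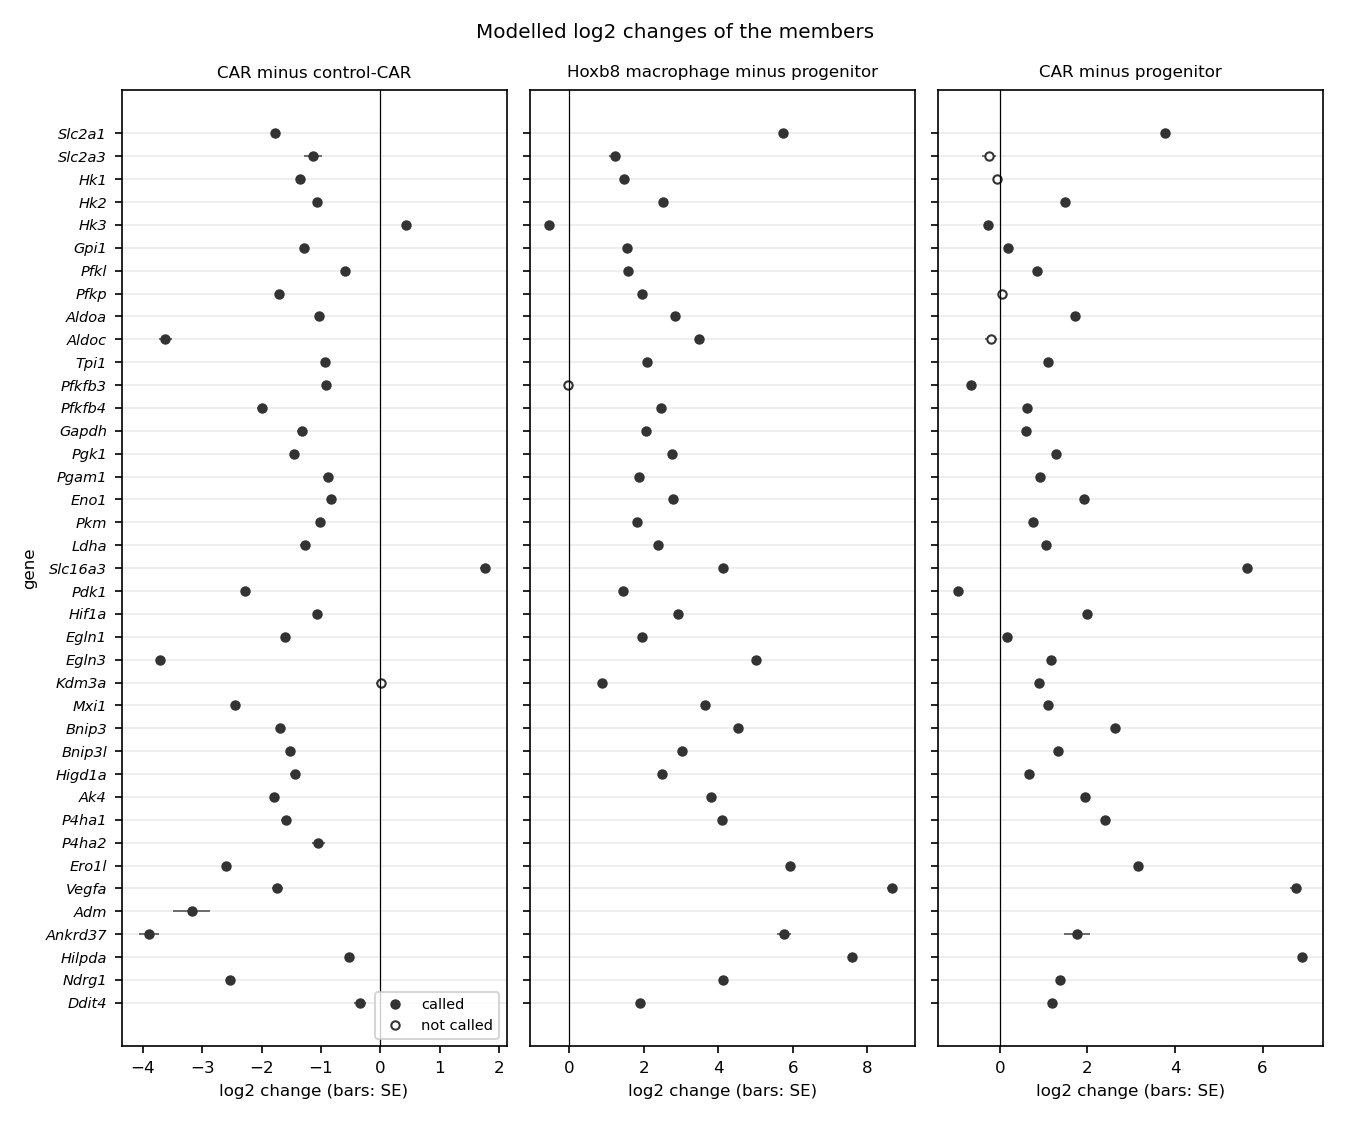
Modelled log2 changes (horizontal axes, in log2 units; bars are SE, mostly smaller than the points) of the 39 members (vertical axis, by role) in 3 comparisons; filled points passed an adjusted p of 0.05. In CAR minus control-CAR 36 members lie on the negative side and are filled, with Slc16a3 and Hk3 filled on the positive side; Adm and P4ha2 are left out of the panels against progenitor cells, where they had 0 and 1 counts.

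The mix of isoenzymes also differed between groups. Hk3 made up 54.2% ± 0.642 of the summed FPKM of Hk1, Hk2 and Hk3 in CAR macrophages and 27.5% ± 0.585 in control-CAR macrophages. Hk1 led in control-CAR, with 49.3% ± 0.683 against 28.2% ± 0.361 in CAR. In progenitor cells Hk3 held 64.8% ± 0.382, and in BMDM 38.4% ± 0.738. For glucose transporters, Slc2a6, which is no member, took 35.4% ± 0.579 of the sum of Slc2a1, Slc2a3 and Slc2a6 in CAR against 5.11% ± 0.256 in control-CAR and 45.8% ± 1.21 in progenitor cells. Slc2a1 held 63.4% ± 0.615 in CAR and 93.7% ± 0.284 in control-CAR. Among phosphofructokinases Pfkl led in CAR (59.2% ± 0.926) and Pfkp in control-CAR (53.0% ± 0.694). Pdk1 held 35.0% ± 2.08 of the sum of Pdk1, Pdk2 and Pdk3 in CAR and 70.0% ± 3.13 in control-CAR. Slc16a1 (MCT1) supplied 93.3% ± 0.403 of the sum of both lactate transporters in progenitor cells, whereas Slc16a3 supplied 88.2% ± 0.131 in CAR and 97.5% ± 0.112 in BMDM. Aldoa and Eno1 held at least 98.1% of their sets (Aldoa with Aldoc, Eno1 with Eno3) in all 5 groups. Shares are given as means of 3 libraries with no test.

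**Figure D4:**
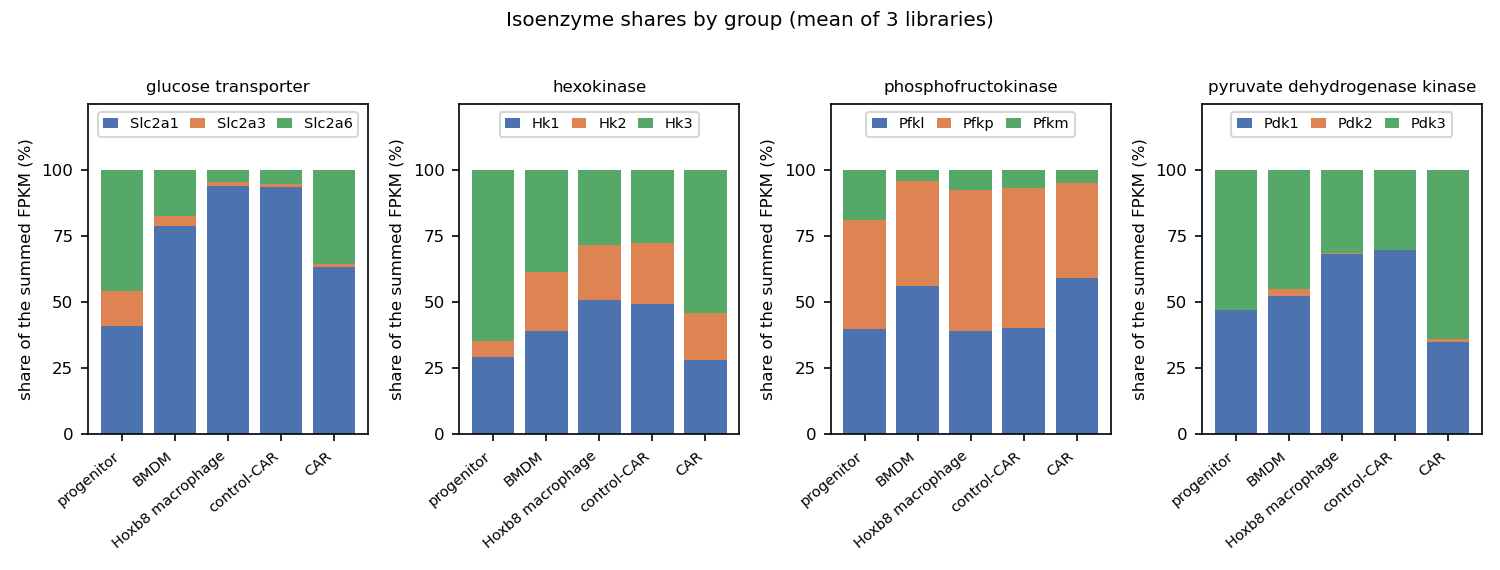
Stacked bars of the mean share (vertical axis, % of the summed FPKM, n = 3) of each isoenzyme in 4 sets, by group (horizontal axis). CAR bars differ from control-CAR bars by more Slc2a6, Hk3, Pfkl and Pdk3.

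Between control-CAR and untreated Hoxb8 macrophages, 36 of the 39 members were not called, 1 was higher (background 0.721%) and 2 were lower (background 1.9%), with a median change of -0.12 against 0.00 for all tested genes. The number of members lower depended on the test, with 8 by DESeq2 and 0 at a threshold of 0.01. Of all tested genes, 313 and 91 were called lower there, against 224 in the main fit. In the main fit 34 of 39 modelled changes were below 0. By TPM the members' median was -0.05 and that of all tested genes 0.04. Library totals moved the split of all tested genes from 85 higher and 224 lower to 278 and 192. Pfkfb3 was higher in control-CAR, 25.9 ± 0.836 against 20.4 ± 0.622 FPKM (0.31, SE 0.07; edgeR adjusted p = 0.0223). Higd1a was lower, 83.6 ± 7.25 against 106 ± 8.67 FPKM (-0.39, SE 0.08; edgeR adjusted p = 0.0123). Adm was lower as well, at 1.87, 1.94 and 3.01 against 4.49, 3.24 and 4.89 FPKM (-0.93, SE 0.20; edgeR adjusted p = 0.0187). All 3 calls were lost when certain libraries were left out, with the signs kept. Calls over all tested genes fell too, to 13 higher and 93 lower without Hoxb8 macrophage replicate 1. Pfkfb3 was not called without control-CAR replicate 3 or any one Hoxb8 macrophage replicate (0.29 to 0.32), nor Higd1a without control-CAR replicate 3 (-0.34) or Hoxb8 macrophage replicate 2 (-0.34). Adm was not called without control-CAR replicate 1 or 2 or Hoxb8 macrophage replicate 1 or 3 (-0.88 to -0.78).

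Both kinds of untreated macrophage held more of these transcripts than progenitor cells. In Hoxb8 macrophages 37 members were called higher (background 44.7%) and only Hk3 lower (background 39.6%), with a median change of 2.75 against 0.06 for all tested genes. In BMDM 36 were higher (background 46.6%) and again Hk3 alone lower (background 40.7%), with a median of 1.96 against 0.10. By TPM the members' medians were 1.62 and 1.15, and those of all tested genes -0.86 and -0.61. Both comparisons share the progenitor libraries. Among the largest rises was that of Vegfa, 8.67 (SE 0.14) in Hoxb8 macrophages and 6.50 (SE 0.13) in BMDM, from 1.81, 2.09 and 2.24 FPKM in progenitor cells. Hilpda rose from 11.5, 13.1 and 13.7 FPKM by 7.59 and 5.50, in the same order. Slc2a1 rose by 5.74 and 4.31, Slc16a3 by 4.12 and 6.67, and Hif1a by 2.93 and 2.35. Apart from Adm and P4ha2, with 0 and 1 counts in progenitor cells, the largest change was that of Vegfa in Hoxb8 macrophages and that of Slc16a3 in BMDM. Adm had no count in the 3 progenitor libraries, and against a floor of 3 counts over the group it was at least 158-fold higher in BMDM and at least 80.6-fold higher in Hoxb8 macrophages. Gapdh rose by 2.05 and 1.18 with TMM scaling, yet after quantile normalisation it was called lower in both (-0.71 and -0.67 by limma). Hk3 changed by -0.53, SE 0.06 in Hoxb8 macrophages and -1.27, SE 0.06 in BMDM. Not called were Pfkfb3 in Hoxb8 macrophages (-0.04) and Hk1 (-0.09) and Kdm3a (-0.03) in BMDM; without BMDM replicate 1 Kdm3a stood at 0.025, and Hk1 at -0.15. Library totals moved the median of all tested genes by -0.74 and -0.64 in these 2 comparisons, and the split in Hoxb8 macrophages from 5269 higher and 4673 lower to 3123 and 7195; for BMDM it went from 5497 and 4797 to 3762 and 6959.

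Set side by side, Hoxb8 macrophages exceeded BMDM for 32 members (background 32%) and were lower for 5 (background 38.3%), with a median of 0.88 against -0.05 for all tested genes. The split of all tested genes, 3776 higher and 4516 lower, was 1815 and 7172 by TPM and 4869 and 3609 by quantile normalisation. The members' median was 0.54 and 0.52 there, and that of all tested genes -0.32 and 0.07. Ndrg1 (2.31, SE 0.07), Vegfa (2.17, SE 0.10) and Hilpda (2.09, SE 0.06) were among the members higher in Hoxb8 macrophages, as were Ero1l (1.98, SE 0.07) and Egln3 (1.79, SE 0.07). The 5 that were lower were Slc16a3 (-2.55, SE 0.08), Pfkfb3 (-1.62, SE 0.07), Ddit4 (-1.15, SE 0.10), Adm (-0.81, SE 0.16) and Aldoc (-0.58, SE 0.09). BMDM libraries for Ddit4 spread from 128 to 175 FPKM, all above the 62.3, 69.6 and 54.4 FPKM of Hoxb8 macrophages. Slc2a3 and Pfkfb4 were not called. Slc2a3 had 11.8, 18.2 and 21.4 FPKM in BMDM and 10.7, 11.1 and 15.1 in Hoxb8 macrophages (-0.31, SE 0.14), and it was called lower without BMDM replicate 1 (-0.50) or Hoxb8 macrophage replicate 3 (-0.48). Without BMDM replicate 3 it was -0.14, not called.

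Against BMDM, CAR macrophages were lower for 29 members (background 37.8%) and higher for 4 (background 39.2%), with a median of -0.63 against 0.02 for all tested genes. The split of all tested genes, 4618 higher and 4455 lower, was 6425 and 3017 by TPM. There the members' median was -0.37 and that of all tested genes 0.26. Hilpda (1.41, SE 0.05), Hk3 (2.01-fold), Kdm3a (0.93, SE 0.09) and Vegfa (0.25, SE 0.09) were the 4 that were higher. The call of Vegfa, at 159, 150.1 and 153 FPKM in CAR and 90.4, 127 and 124 in BMDM libraries, was lost without BMDM replicate 1 (0.13) or CAR replicate 1 (0.23). Adm (-4.91, SE 0.26), Aldoc (-4.27, SE 0.11), Ankrd37 (-2.76, SE 0.18), Pfkfb3 (-2.23, SE 0.07) and Egln3 (-2.04, SE 0.07) were lower, and so was Slc16a3 (-1.02, SE 0.07), although CAR exceeded control-CAR there. Of the 36 members lower in CAR than in control-CAR macrophages, 28 were also called lower against BMDM; 25% of all tested genes were called lower in both, and both comparisons use the CAR libraries. Hk1, Hk2, Eno1, Pkm, Higd1a and Ak4 were not called, with CAR and BMDM means of 112 and 96.4, 70.1 and 55.6, 1729 and 1649, 1533 and 1430.4, 38.0 and 36.7, and 14.3 and 13.7 FPKM.

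Progenitor cells were the low end of most members, and CAR macrophages remained above them for 32 (background 45.9%) and below them for 3 (background 39.7%), with a median of 1.18 against 0.07 for all tested genes. The split of all tested genes, 5418 higher and 4679 lower, was 3938 and 6592 with library totals. The members' median was 0.69 with library totals and 0.58 by TPM, and that of all tested genes was -0.40 in both. Hilpda (6.90, SE 0.07), Vegfa (6.75, SE 0.13), Slc16a3 (5.64, SE 0.09), Slc2a1 (3.76, SE 0.07) and Ero1l (3.16, SE 0.08) stood far above. Hif1a was higher too (1.98, SE 0.07), whereas Egln3 was only 2.26-fold higher (1.18, SE 0.07). Pdk1 (-0.95, SE 0.06), Pfkfb3 (-0.65, SE 0.07) and Hk3 (-0.27, SE 0.06) were lower. Slc2a3, Hk1, Pfkp and Aldoc were not called, at 5.61, 112, 52.1 and 2.71 FPKM in CAR and 9.19, 166, 70.2 and 4.37 FPKM in progenitor cells. In all, 30 members were called lower than in control-CAR and higher than in progenitor cells, as were 17.2% of all tested genes; both comparisons use the CAR libraries. The smallest calls were Gpi1 (0.18) and Egln1 (0.16), both called lower with library totals (-0.30 and -0.33). Leaving out any one CAR or progenitor replicate ended the call of Egln1 (0.11 to 0.17), and leaving out any one progenitor replicate that of Gpi1 (0.13 to 0.15). With library totals the members lower than in progenitor cells numbered 9.

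Other genes of these pathways gave a more mixed picture in CAR against control-CAR macrophages, where 41.9% of all tested genes were called higher and 36.8% lower. Of 10 tested glycolytic isoenzymes outside the members, 3 were called higher and 3 lower (median -0.05): Eno3, muscle enolase, rose from 1.89 ± 0.543 to 32.9 ± 1.65 FPKM (2.51, SE 0.11), Slc2a6 rose (1.59, SE 0.09) and Pfkm, muscle phosphofructokinase, fell (-1.59, SE 0.09). Of 15 other pyruvate and lactate genes, 9 were higher and 3 lower (median 0.26). Bsg, the chaperone of the lactate transporters, fell from 1790.1 ± 38.3 to 722 ± 13.9 FPKM (-1.61, SE 0.06) while Slc16a1 (0.93, SE 0.06) and Pdha1, a subunit of pyruvate dehydrogenase (0.78, SE 0.05), rose. Gluconeogenesis and glycogen genes had 9 of 11 lower and 2 higher (median -1.07). Among them were the glycogen branching enzyme Gbe1 (-2.56, SE 0.08), glycogen phosphorylase Pygl (-2.20, SE 0.06) and glycogen synthase Gys1 (-2.20, SE 0.07), so that genes for building and for breaking down glycogen were both lower. The pentose phosphate pathway, which makes NADPH, had 6 of 7 lower and 0 higher (median -0.48), with Tkt (-1.18, SE 0.06), G6pdx (-0.96, SE 0.08) and Pgd (-0.63, SE 0.07) in front. HIF subunits and regulators split, 6 of 12 lower and 3 higher (median -0.18). By FPKM 6 were higher and 4 lower in CAR without overlap. Of all tested genes 24.7% were lower without overlap, and the share that were higher is not given here. The median change of all tested genes was 0.29 by limma on log2(FPKM + 1). The summed TPM share of these HIF subunits and regulators was 0.110% ± 0.00140 in CAR and 0.104% ± 0.00233 in control-CAR. Elob alone had a mean of 450 FPKM in CAR libraries, where the whole list summed to 695 to 731 FPKM. Vhl, which brings hydroxylated HIF to degradation, fell (-1.52, SE 0.08), as did Cited2 (-0.77, SE 0.06), a HIF-induced inhibitor, and Arnt (-0.50, SE 0.06), the partner subunit, whose FPKM libraries overlapped and whose sign turned by TPM (0.12, not called). Of 29 other hypoxia-induced genes 21 were lower and 8 higher (median -0.90), among them Arg1, an arginase (-8.58, SE 0.21), and Fam162a, a mitochondrial protein (-3.73, SE 0.07).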

How the data were processed

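Messenger RNA was measured by bulk sequencing in 15 libraries, 3 per group. Per the labels' protocols, oligo(dT)-selected RNA was reverse transcribed with random hexamers and sequenced as paired reads. The submitters' processing notes name HISAT2, Bowtie2, RSEM 1.3.1, DESeq2 1.4.5 and the build GRCm38.p6, with no role for each. The strandedness and annotation used in counting were not given in the sources used here. The authors deposited estimated counts (94.4% to 96.0% of values per library whole), FPKM and TPM values per gene, per the file headers. The 15 average columns were not used.

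Counts were rounded and genes with FPKM of at least 1 in at least 3 libraries kept. One edgeR 4.0.16 model (R 4.3.3) of all 15 libraries had a mean per group, TMM factors and 10 residual degrees of freedom, and 7 comparisons were tested two-sided with Benjamini-Hochberg adjustment over 11793 genes. A change is therefore relative to TMM, while FPKM follows library totals. SE was taken from the F statistic. Alternatives were other scalings, DESeq2 1.42.0, limma 3.58.1 on log2(FPKM + 1), log2(FPKM + 0.1) and log2(TPM + 1), other filters, 2 groups only, a replicate block, a threshold of 0.01 and leaving out each replicate. Figures used Python and matplotlib. On simulated counts for CAR against control-CAR (11793 genes), calls were made for 83.6% of 67 genes simulated at 1.5-fold, 95.5% of 67 at 2-fold and 66 of 66 at 4-fold, and for 6 of 11593 genes left unaltered. Few genes were altered there, up and down alike, so the assumption of TMM held by design. In the data, 4946 genes were called higher and 4334 lower. The simulation therefore cannot give the error under such a broad change.

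The members and the other lists were chosen with earlier results of these data known. Values in every library are given for Hif1a, Egln3, up to 3 called members per role with the largest change in CAR against control-CAR, and members called against the majority there; other genes named are up to 3 called per list with at least 10 FPKM, of which 1 is not reported here. Added to this rule, after their values were seen, were the library values printed for other members. Counting error alone underlies the floor of 3 counts and the counting interval.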

Additional observations from a re-analysis of the deposited data

How the results depend on the processing

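The counts of members called higher and lower in CAR against control-CAR macrophages stayed within 1.5 times of those reported in all alternatives. The 29 lower by at least 2-fold became 16 by TPM (an alternative applied to this count after its value was seen). Over all tested genes, lower calls of any size also fell there, from 4334 to 1933. Elsewhere, members lower in control-CAR than in Hoxb8 macrophages numbered 8 by DESeq2, 4 with the upper quartile, 1 in the limma fits on FPKM (both pseudocounts), TPM and quantile-normalised values and with only 2 groups, and 0 at a threshold of 0.01, where 0 were higher too. Of all tested genes, 224 were lower there in the main fit, 313 by DESeq2, 252 with the upper quartile and 91 at 0.01. The limma fits gave 137 to 166 and the fit of only 2 groups 85. Leaving out a replicate gave 1 to 2 members lower and 0 to 1 higher. Members lower in Hoxb8 macrophages than in progenitor cells numbered 2 with library totals, upper quartile, FPKM (both pseudocounts), TPM and 2 groups, and 3 by quantile. For BMDM against progenitor cells they numbered 3 with library totals, FPKM, TPM and quantile, and 2 with the upper quartile and with no filter. TPM gave 8 members lower in Hoxb8 macrophages than in BMDM and 8 higher in CAR than in BMDM (7 by quantile). Members lower in CAR than in progenitor cells numbered 9 with library totals, FPKM, TPM and quantile, and 6 with the upper quartile.

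Among named genes, signs turned as follows. In CAR against control-CAR, Kdm3a was -0.0042 by DESeq2, -0.019 by quantile, -0.021 with no filter, and -0.075 to 0.15 with a replicate left out. Hilpda (0.014), Ddit4 (0.21) and Arnt (0.12) turned by TPM, and Gapdh by quantile (0.12). Quantile also turned Gapdh in Hoxb8 macrophages (-0.71), BMDM (-0.67) and CAR (-0.64) against progenitor cells, and in Hoxb8 macrophages against BMDM (-0.032). Kdm3a in Hoxb8 macrophages against progenitor cells was -0.18 by TPM, and in BMDM against them -0.083 to 0.025 with a replicate left out, where Hk1 ran from -0.15 to 0.00053. In CAR against progenitor cells Gpi1 was -0.30 with library totals, -0.30 and -0.31 by FPKM, -0.35 by TPM and -0.53 by quantile; Egln1 was -0.33, -0.32, -0.32, -0.36 and -0.052. The causes were not tested. Over all named genes and alternatives, 2103 values kept their direction and side of the threshold, 54 lost and 30 gained a call, and 27 turned.

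Deviations of libraries with the same replicate number were little correlated (-0.144 to 0.0312). This cannot show whether such libraries shared an animal or a culture. With the number as a replicate block, 36 members were lower and 2 higher in CAR against control-CAR, and 3 lower and 1 higher in control-CAR against Hoxb8 macrophages; Slc2a3 gained a call in Hoxb8 macrophages against BMDM (-0.30, edgeR adjusted p = 0.0394), where 6 members were lower. Adm in CAR macrophages (18 counts in 3 libraries) is limited by depth, and the FPKM, TPM and quantile alternatives differ from edgeR in the test as well as the scaling.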

Other observations

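Gapdh and Pgk1, both common reference genes for RNA levels, differed between groups here. Gapdh ran from 4158 ± 229 FPKM in progenitor cells to 9674 ± 181 in Hoxb8 macrophages, and Pgk1 from 494 ± 6.13 in progenitor cells to 1903 ± 44.5 in control-CAR macrophages. The direction of Gapdh turned with quantile normalisation in the comparisons named above. Lox, a collagen cross-linking enzyme counted among the other hypoxia-induced genes and named here after its value was seen, rose in CAR against control-CAR macrophages (35.7 ± 0.0529 against 2.61 ± 0.363 FPKM, 3.47, SE 0.07), while 21 of 29 genes of its list were called lower.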
